A study of Oryza sativa with 8 samples.

Results

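Chromatin folding after heat stress (HS) was compared between Nipponbare (Nip), a japonica rice cultivar, and 93-11, an indica cultivar. The comparison used the 4 Hi-C libraries whose labels gave HS, 2 from each cultivar, out of 8 libraries in all. Hi-C ligates crosslinked DNA and records which stretches of chromatin touch each other. The aerial parts of 3-week-old seedlings grown in culture solution were used, and HS was 45 °C for 36 h with high humidity and low light. The other 4 libraries, 2 per cultivar, came from seedlings kept under normal conditions. The methods give a far higher light intensity for growth than for HS and no humidity for growth, so heat, light and humidity cannot be told apart wherever HS is set against normal conditions. The methods of the study describe the 2 libraries of a group as biological replicates, and the p-values below measure the spread between these libraries only. Tests with limma, per chromosome or per window, pool this spread across chromosomes or windows of the same libraries, which are not independent replicates. Very small p-values from limma rest on this pooling. The files of each cultivar had coordinates, chromosome lengths and gene counts of their own. The cultivar therefore cannot be told apart from its assembly, its annotation and the length of its chromosomes, and all comparisons below are of summaries per genome, per chromosome or per relative position.

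In plant nuclei, stretches of chromatin separate into A compartments, which are gene-rich and mostly active, and B compartments, which hold much of the repeat-rich and silent chromatin around the centromeres. Within compartments, topologically associating domains (TADs) are stretches whose contacts fall more often inside the domain than across its borders, and small domains can lie inside larger ones. In Arabidopsis, prolonged heat is known to loosen condensed heterochromatin.

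Each library held a list of TADs with positions in steps of 5 kb and a compartment score for every bin of 50 kb. The score is a first principal component (PC1) of contacts, positive in A and negative in B. The genome was covered by 7468 bins with 41069 genes in Nip and by 7763 bins with 40598 genes in 93-11. Chromosomes were longer in 93-11 on 11 of 12, from 5.67% shorter on chromosome 12 to 10.3% longer on chromosome 11, and the mean number of genes per bin was lower in 93-11 on 12 of 12, at 5.50 in Nip against 5.23 over the genome. About 5% of bins carried no score, namely 378 and 377 in the Nip HS libraries and 393 in each 93-11 HS library. The values carry no contact counts and library depth was not used here, so no counting interval is given.

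HS replicates differed more from each other than normal replicates did. Calls of A or B differed between the HS replicates in 3.19% of bins in Nip and 2.64% in 93-11, against 1.91% and 1.93% between normal replicates. On single chromosomes the share ran from 1.56% to 6.82% in Nip and from 0.539% to 4.67% in 93-11. TAD lists agreed far less than compartments. Of the boundaries of Nip HS 1 and 2, 58.7% and 57.5% lay within 5 kb of a boundary of the other replicate, and in 93-11 HS the shares were 51.6% and 50.4%. In normal replicates they were 65.5% and 66.8% in Nip and 59.0% and 59.8% in 93-11. The HS lists held more boundaries, with 9879 and 10058 against 6538 and 6413 in normal Nip, and 9382 and 9627 against 6172 and 6103 in normal 93-11. Denser boundaries match more often by position alone, and the share matched by chance was not counted. Compartment values below therefore rest on closer replicates than TAD values do.

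The first question was how much of each genome lay in A compartments after HS. Over the whole genome the share of scored bins in A was 49.97% and 49.81% in the Nip HS libraries and 49.85% and 50.04% in the 93-11 HS libraries. The groups overlapped and differed by -0.0550 percentage points (exact two-sided permutation test, p = 0.667, where 2 against 2 libraries cannot go below 0.333). Under normal conditions the values were 49.7% and 49.9% in Nip and 48.9% and 48.5% in 93-11, with no overlap.

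On single chromosomes the cultivars did differ. With limma across the 12 chromosomes and Benjamini-Hochberg adjustment, 11 (91.7%) passed an adjusted p of 0.05, with chromosomes 2, 3, 4 and 7 higher in Nip and chromosomes 1, 5, 6, 9, 10, 11 and 12 higher in 93-11. Chromosome 2 had the largest surplus in Nip, with 55.1% and 54.1% of bins in A against 48.9% and 48.6% in 93-11. The difference was 5.87 ± 0.541 percentage points (SE, adjusted p = 6.28e-08). Chromosome 9, which carries a ribosomal DNA array on its short arm, had the largest surplus in 93-11, with 43.8% and 42.9% in Nip against 49.5% and 48.6%. The difference was -5.68 ± 0.554 (adjusted p = 7.14e-08), several times the gap between replicates of either cultivar. The differences were smallest on chromosome 6, with 46.2% and 46.5% against 47.3% and 47.9% (-1.26, adjusted p = 0.0312), and on chromosome 8, with 48.4% and 46.8% against 48.9% and 48.2% (-0.968, adjusted p = 0.121). Chromosome 8 was the 1 chromosome that did not pass, and the only one whose replicate ranges overlapped.

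**Figure D1:**
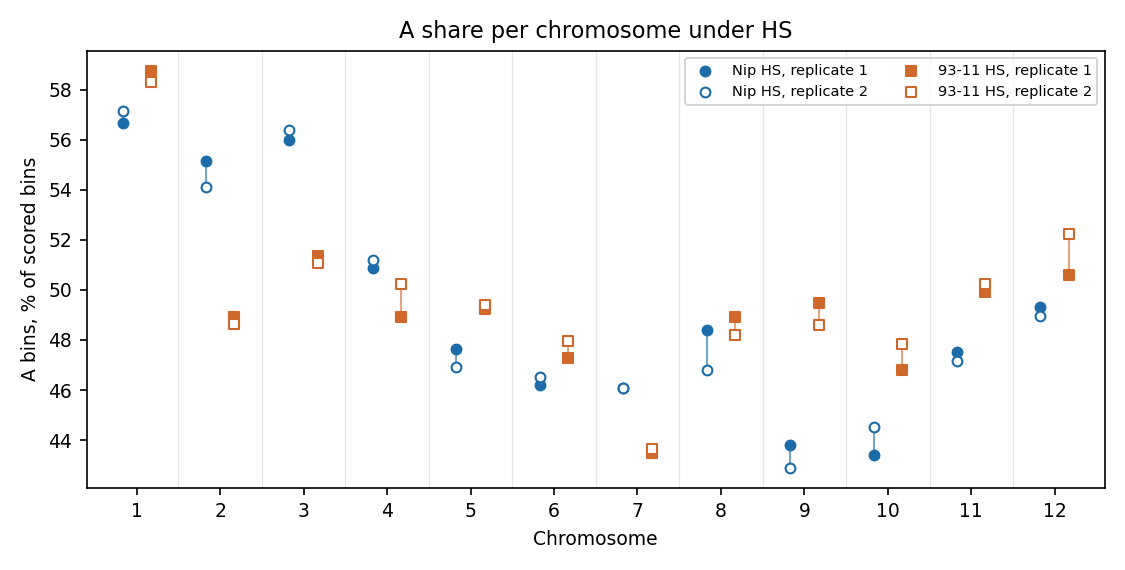
Share of scored 50-kb bins called A (percent) on each of the 12 chromosomes, 1 point per library, for Nip and 93-11 under HS. Under HS the Nip points lie above those of 93-11 on chromosomes 2, 3, 4 and 7 and below them on 7 others, and they overlap on chromosome 8.

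Chromosome 1 had the highest A share in both cultivars, with means of 56.9% in Nip and 58.5% in 93-11. The lowest was chromosome 9 in Nip, at 43.3%, and chromosome 7 in 93-11, at 43.6%. The direction of the cultivar difference was the same under normal conditions on 10 of 12 chromosomes. The change of the difference with HS, tested as an interaction with limma over all 8 libraries, passed on 5 of 12 chromosomes (41.7%), namely 4, 8, 9, 10 and 11, each time towards 93-11. On chromosome 10 the normal libraries had 45.6% and 45.4% in Nip and 45.2% and 44.7% in 93-11, and the HS libraries had 43.4% and 44.5% in Nip and 46.8% and 47.8% in 93-11. The order of the cultivars on this chromosome thus turned, with an interaction of -3.94 ± 0.712 percentage points (adjusted p = 1.56e-05). On chromosome 9 the interaction was -3.29 (adjusted p = 1.73e-04). Without either 93-11 HS replicate, 6 in place of 11 chromosomes passed under HS. The interaction passed on 2 chromosomes without Nip normal 2 and on 3 without Nip HS 2, 93-11 normal 2 or 93-11 HS 2.

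Compartments were next described by the length of their runs, a run being an unbroken series of bins with the same call. A runs had a mean length of 410 and 402 kb in Nip HS and of 447 and 434 kb in 93-11 HS. The groups did not overlap, with a difference of -34.2 kb, Nip minus 93-11 (exact two-sided permutation test, p = 0.333, the smallest possible). A runs numbered 432 and 439 in Nip and 411 and 425 in 93-11, and single-bin A runs 145 and 151 in Nip and 125 and 132 in 93-11, so Nip had more short A runs. In the normal libraries the mean A run was 463 and 461 kb in Nip and 477 and 467 kb in 93-11. B runs had a mean length of 363 and 352 kb in Nip HS and 367 and 360 kb in 93-11 HS, and overlapped. Their make-up differed even so. Single-bin B runs numbered 102 and 114 in Nip and 126 and 134 in 93-11. Runs of 6 to 20 bins held 36.2% and 38.2% of B bins in Nip against 44.7% and 47.4% in 93-11, and runs of 21 bins or more held 41.7% and 39.5% against 35.8% and 32.9%. As scored, more of the B compartment of Nip thus lay in the longest runs and more of that of 93-11 in runs of intermediate length. The libraries did not overlap in either class. These classes were counted with runs ended at bins with no score, so they depend on where such bins lay. Across such bins the mean B run was 551 and 532 kb in Nip HS and 552 and 537 kb in 93-11 HS, and overlapped.

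The A run difference over the whole genome depended on how bins with no score were treated. Where runs continued across such bins, the mean A run was 522 and 504 kb in Nip HS and 524 and 510 kb in 93-11 HS, the libraries overlapped, and the difference shrank to -3.74 kb. The use of this alternative by chromosome, below, was chosen after the data had been examined.

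By chromosome, mean A run length passed on 11 of 12 chromosomes (91.7%, limma on the log2 scale), with chromosomes 4, 6, 9 and 12 longer in Nip and chromosomes 1, 2, 3, 5, 7, 8 and 11 longer in 93-11. Across bins with no score, 5 passed, 2 longer in Nip and 3 in 93-11. Chromosome 2 had A runs of 586 and 541 kb in Nip against 939 and 888 kb in 93-11, a log2 difference of -0.70 ± 0.095 (SE, adjusted p = 1.69e-06), which became -0.28 (adjusted p = 0.0682) across bins with no score. Chromosome 11 had 183 and 177 kb against 274 and 286 kb (-0.64, adjusted p = 3.76e-06). A runs were thus clearly longer in 93-11 on both chromosomes as scored, although chromosome 2 had the lower A share in 93-11. The smallest differences were on chromosome 10 (0.10, adjusted p = 0.327) and chromosome 8 (-0.26, adjusted p = 0.0116, and -0.035 across bins with no score). Chromosome 3 had the longest mean A run in both cultivars, 944 kb in Nip and 1227 kb in 93-11, and the shortest were on chromosome 11 in Nip, at 180 kb, and chromosome 12 in 93-11, at 233 kb. The counts fell to 7 and 6 without 93-11 HS 1 and 93-11 HS 2.

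A run length on chromosome 8 was the only one of 12 (8.33%) for which the cultivar difference changed with HS. It was 334 and 314 kb in normal Nip and 260 and 267 kb in normal 93-11, and 221 and 234 kb in Nip HS and 278 and 268 kb in 93-11 HS. Nip had the longer A runs under normal conditions and, as scored, the shorter ones after HS, with an interaction of -0.56 ± 0.10 on the log2 scale (limma, adjusted p = 0.00300). Across bins with no score the HS libraries overlapped, with 259.8 and 279 kb in Nip and 284 and 268 kb in 93-11, against 383 and 369 kb and 260 and 267 kb in the normal libraries. The longer A runs of Nip were then no longer seen after HS but the order did not turn beyond the spread, and the interaction was -0.55 (adjusted p = 0.0103). The number of chromosomes passing rose to 4 without Nip HS 1 and 2 without 93-11 HS 1.

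Mean B run length passed on 5 of 12 chromosomes (41.7%), with chromosomes 6 and 9 longer in Nip and chromosomes 2, 4 and 11 longer in 93-11. Across bins with no score, chromosomes 6, 9 and 12 passed as longer in Nip and chromosomes 1, 2, 7 and 11 as longer in 93-11. Chromosome 4 then had 778 and 814 kb in Nip HS against 836 and 694 kb in 93-11 HS (0.063, limma, adjusted p = 0.677). The list of chromosomes thus depended on how such bins were treated. As scored, chromosome 9 had B runs of 533 and 593 kb in Nip against 299 and 296 kb in 93-11. The log2 difference was 0.92 ± 0.078 (SE, limma, adjusted p = 0.00109). Chromosome 6 had 468 and 405 kb against 315 and 288 kb (0.53, adjusted p = 0.0189). A runs on chromosome 9 were shorter in 93-11 as well, with 531 and 623 kb in Nip against 422 and 386 kb (0.51, adjusted p = 6.59e-05), so both compartments lay in shorter runs there. The differences were smallest on chromosome 8 (0.040, adjusted p = 0.670) and chromosome 10 (0.064, adjusted p = 0.563). Chromosome 3 had the longest mean B run in both cultivars, 900 kb in Nip and 1035 kb in 93-11, and the shortest, 212 kb in each, lay on chromosome 11 in Nip and chromosome 12 in 93-11. The count was 2 and 1 without 93-11 HS 1 and 93-11 HS 2. The difference changed with HS on 0 of 12 chromosomes (0%) by limma, with 1 at an unadjusted p under 0.05.

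The longest runs that both HS replicates of a cultivar shared are given in the coordinates of that cultivar. A run ended at a bin with no score, so these lengths depend on where such bins lay. In Nip the longest A run was chr5:20450001-24750000, 4.30 Mb with 620 genes, and the longest B run was chr3:22000001-27400000, 5.40 Mb with 576 genes. In 93-11 both lay on chromosome 3, the A run at chr3:500001-7900000, 7.40 Mb with 1100 genes, and the B run at chr3:22450001-29600000, 7.15 Mb with 730 genes. The longest B runs occupied a similar part of chromosome 3 in both cultivars, from 59.4% to 74.0% of its length in Nip and from 57.5% to 75.8% in 93-11. Their mean scores in the 2 HS replicates were -1.07 and -1.06 SD of the chromosome in Nip and -1.05 and -1.05 SD in 93-11. On this chromosome no scored bin was A from about 12950001 to 27750000 in Nip HS and from about 13650001 to 29250000 in 93-11 HS. Both B runs were thus mostly or wholly parts of a longer stretch without A bins, and their lengths do not measure that stretch.

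The next comparison asked how closely compartments followed the genes. The study's methods used the gene annotation to decide which sign of PC1 is A, so that A bins hold more genes than B bins is in part built in, and only the size of the ratio was compared. A bins held 6.94 genes in both Nip HS libraries and 6.93 and 6.92 in the 93-11 HS libraries. B bins held 4.25 and 4.26 genes in Nip and 3.88 and 3.86 in 93-11. The ratio of A to B was 1.63 in both Nip HS libraries and 1.79 in both 93-11 HS libraries, a difference of -0.161 with no overlap (exact two-sided permutation test, p = 0.333, the smallest possible). The gap came from B bins, since A bins held almost the same number of genes in both cultivars. Bins with no score were also poorer in genes in 93-11, with 2.05 and 2.13 genes against 3.71 in each Nip HS library.

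All 12 chromosomes (100%) had a higher ratio in 93-11 by limma on the log2 scale. Genes per B bin were lower in 93-11 without overlap on 12 of 12 chromosomes, whereas genes per A bin were higher in Nip on 6 and in 93-11 on 5 of the 11 chromosomes without overlap. Chromosome 11, which holds many clusters of disease resistance genes in rice, showed the largest difference. Its ratio was 1.67 and 1.68 in Nip and 2.17 in both 93-11 libraries, a log2 difference of -0.37 ± 0.0062 (SE, adjusted p = 2.01e-05), with 3.77 genes per B bin in both Nip libraries against 2.801 and 2.790 in 93-11. Chromosome 8 followed at -0.23 (adjusted p = 0.00365). Chromosome 3 at -0.043 (adjusted p = 0.00587) and chromosome 5 at -0.064 (adjusted p = 0.0212) differed least. Chromosome 4 had the highest mean ratio in both cultivars, 2.03 in Nip and 2.29 in 93-11, and chromosome 1 the lowest, 1.409 and 1.504. The difference changed with HS on 0 of 12 chromosomes (0%) by limma, with 1 at an unadjusted p under 0.05. Without Nip HS 2 it changed on 2.

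**Figure D2:**
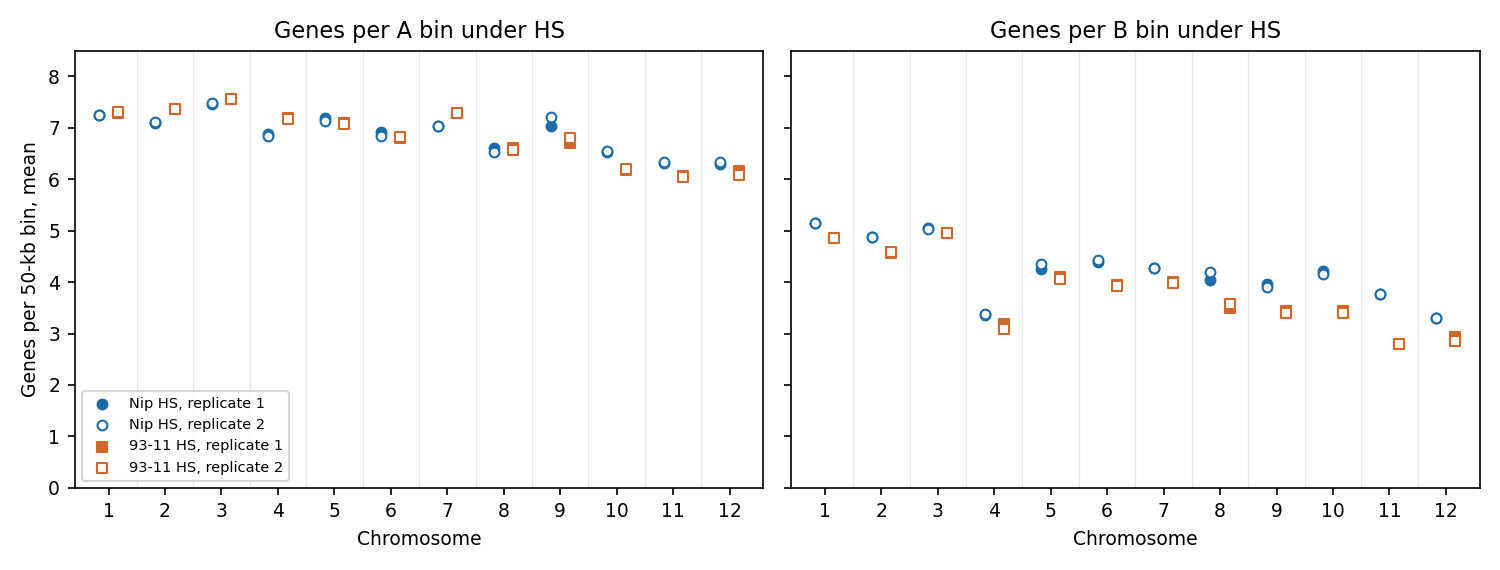
Genes per 50-kb bin in A bins and in B bins on each of the 12 chromosomes under HS, 1 point per library, for Nip and 93-11. The B points of 93-11 lie below those of Nip on all 12 chromosomes, and the A points of the cultivars fall on either side of each other.

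To separate gene number from compartment, bins were placed in 4 classes by their number of genes. Bins with 0 to 2 genes made up 14.7% of the genome in Nip, 1096 bins, and 19.5% in 93-11, 1517 bins. Within this class 7.17% and 6.73% of scored bins were A in Nip HS and 8.06% and 7.79% in 93-11 HS. In bins with 3 to 5 genes the shares were 36.3% and 36.5% against 36.86% and 37.46%. In bins with 6 to 9 genes they were 68.2% and 67.8% against 71.0% and 71.1%, and in bins with 10 or more genes 89.0% in both Nip libraries against 91.2% and 91.3%. The A share was thus higher in 93-11 in every class without overlap, while 93-11 also had more of the gene-poor bins that are mostly B. Under normal conditions the order was the same in bins with 6 to 9 genes, with 68.2% and 68.7% against 70.3% and 70.1%. It was also the same in bins with 10 or more genes, with 89.7% and 89.3% against 90.8% and 91.5%. Bins with 3 to 5 genes overlapped, with 35.7% and 35.8% against 36.3% and 35.3%. The order was the opposite in bins with 0 to 2 genes, with 6.66% and 6.42% against 5.42% and 5.66%.

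The spread of PC1 was compared as the highest minus the lowest score of a chromosome, in units of the SD of that chromosome. Over the genome it was 2.68 and 2.65 SD in Nip HS and 2.51 and 2.54 SD in 93-11 HS, a difference of 0.145 without overlap (exact two-sided permutation test, p = 0.333, the smallest possible). In normal libraries it was 2.43 SD in both Nip replicates and 2.41 and 2.42 SD in 93-11. Between the 5th and the 95th percentile the HS values were 2.56 and 2.54 SD in Nip against 2.45 and 2.46 SD. Bins close to 0, with an absolute score under 0.25 SD, made up 7.11% and 6.88% of scored bins in Nip HS and 5.98% and 6.27% in 93-11 HS, against 5.37% and 5.29% in normal Nip and 5.48% and 5.37% in normal 93-11. Under HS the scores of Nip thus reached further from 0 at the extremes and also had more bins near 0. The mean score of A bins overlapped, at 0.943 and 0.949 SD in Nip and 0.951 and 0.946 SD in 93-11, and that of B bins was -0.927 and -0.926 SD in Nip against -0.945 SD in both 93-11 libraries.

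By chromosome, 9 of 12 (75%) passed by limma, all with the wider range in Nip, and chromosomes 1, 4 and 9 did not. Chromosome 11 was the widest, with 3.07 and 3.02 SD in Nip against 2.46 and 2.51 SD in 93-11, a difference of 0.561 ± 0.0272 SD (SE, adjusted p = 1.05e-15). On chromosome 8 the values were 2.85 and 2.83 SD against 2.60 and 2.64 SD (0.223, adjusted p = 1.21e-07). The differences were smallest on chromosome 4 (-0.00873, adjusted p = 0.751) and chromosome 9 (0.0307, adjusted p = 0.295). The difference changed with HS on 8 of 12 chromosomes (66.7%), each time towards a wider range in Nip. On chromosome 11 the normal values had been 2.43 and 2.39 SD in Nip and 2.31 and 2.36 SD in 93-11, and the interaction was 0.484 SD (adjusted p = 3.55e-07).

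A single rounding step of the deposited score is worth 0.0209 to 0.0294 SD, and the range rests on 2 bins per chromosome. Replicates lay closer than 0.0209 SD on 6 chromosomes in Nip HS and 1 in 93-11 HS, and on 9 and 10 in the normal libraries, so ties from rounding enter the spread. The SE of the HS difference was 0.0272 SD on every chromosome, since limma pooled it fully. That of the interaction ran from 0.0225 SD on chromosome 2 to 0.0357 SD on chromosome 11. Ties between normal replicates lower the SE of the interaction, so its 8 calls may be overstated. Without either Nip HS replicate, 2 in place of 9 chromosomes passed.

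**Figure D3:**
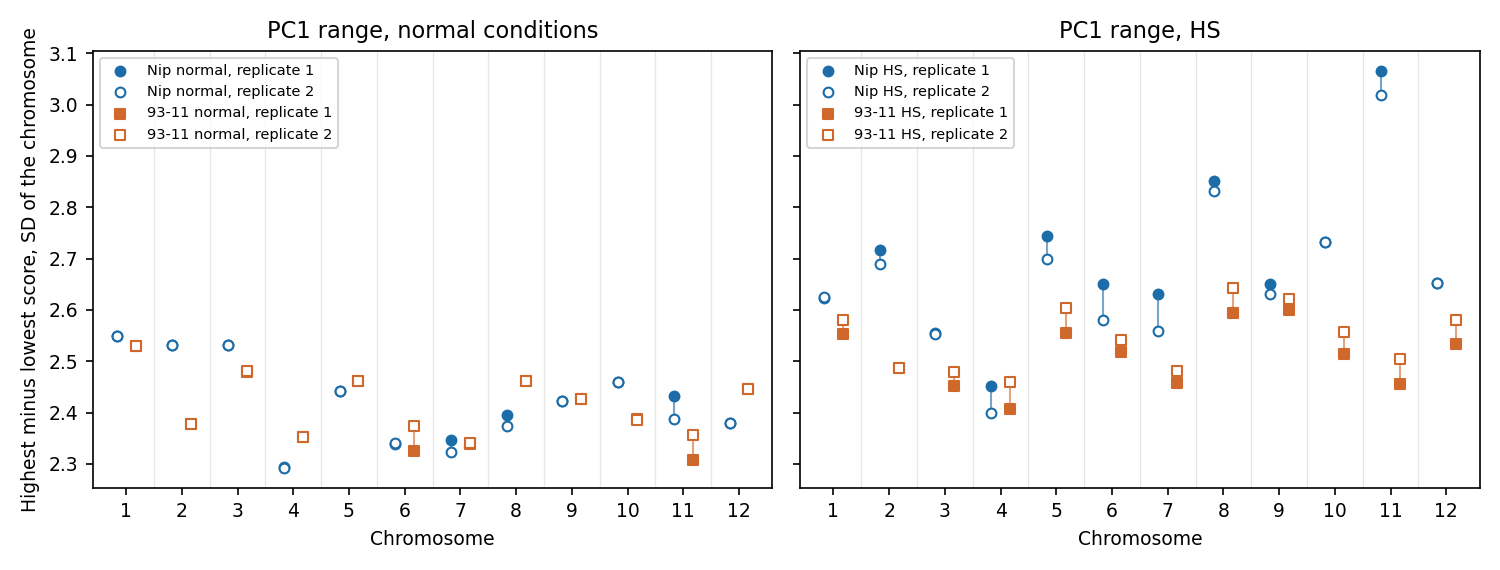
Highest minus lowest PC1 score of each of the 12 chromosomes, in units of the SD of the chromosome, 1 point per library. Under HS the Nip points lie above the 93-11 points on 11 chromosomes, with the widest gap on chromosome 11, and the normal libraries lie between 2.29 and 2.55 SD.

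To find where on the chromosomes the cultivars differed, each chromosome was cut into 20 windows of equal relative length. A window is a relative position and not a homologous region. The mean score of the 240 windows correlated across windows between cultivars at r = 0.952 to 0.953 under HS and 0.956 to 0.958 under normal conditions, against 0.999 between the HS replicates of each cultivar. These correlations are across windows that share a library and a chromosome layout, and windows are not independent replicates. The broad layout of compartments was shared, and smaller differences lay on top of it. By limma, 181 windows (75.4%) passed, 98 with the higher score in Nip and 83 in 93-11, between 10 and 18 per chromosome. Many were small, with 43 of them under 0.1 SD and 22 of at least 0.5 SD. The median absolute difference over all windows was 0.135 SD and the largest was 0.916 SD. The mean score had opposite signs in the cultivars in 19 windows. Of the 181, 167 had the same direction under normal conditions.

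The windows with the lowest adjusted p on the side of Nip were on chromosomes 2, 3 and 8. The window from 15% to 20% of chromosome 2, at 5350001 to 7150000 in Nip and 5750001 to 7700000 in 93-11, had mean scores of 0.0910 and 0.101 SD in Nip HS and of -0.819 and -0.821 SD in 93-11 HS. The difference was 0.92 SD (adjusted p = 3.04e-07), and 61.4% of its bins were A in Nip against 3.95% in 93-11. The window from 80% to 85% of chromosome 3 had 0.660 and 0.641 SD against -0.201 and -0.192 SD, a difference of 0.85 SD. Its A share was 94.4% in Nip and 45.5% in 93-11. The window from 80% to 85% of chromosome 8 had 0.860 and 0.877 SD against 0.143 and 0.160 SD, a difference of 0.72 SD. The first 2 windows were on opposite sides of 0 in the cultivars, and the third was above 0 in both.

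On the side of 93-11 the windows were on chromosomes 8, 12 and 1. The window from 5% to 10% of chromosome 8, at 1400001 to 2800000 in Nip and 1450001 to 2950000 in 93-11, had -0.544 and -0.527 SD in Nip HS against 0.366 and 0.343 SD in 93-11 HS. The difference was -0.89 SD (limma, adjusted p = 3.04e-07), and 31.4% of its bins were A in Nip against 65% in 93-11. The window from 80% to 85% of chromosome 12 had 0.0994 and 0.108 SD against 0.734 and 0.745 SD (-0.64 SD). The window from 75% to 80% of chromosome 1 had 0.146 and 0.139 SD against 0.767 and 0.759 SD (-0.62 SD). Nip thus was near 0 in the last 2 windows, where 93-11 was clearly A.

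In 5 of these 6 windows the cultivar with the higher score also had more genes per bin. The 6 windows were picked by their p, and the share over all 240 windows was not counted. Genes per bin were lower in 93-11 on all 12 chromosomes, so a higher count in Nip is common. A link between score and gene number was not tested. The window on chromosome 2 held 6.56 genes per bin in Nip and 5.44 in 93-11, and that on chromosome 8 from 5% to 10% held 5.75 in Nip and 6.33 in 93-11, in the order of the scores. The exception was the window on chromosome 1, which held 7.34 in Nip and 7 in 93-11.

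The cultivar difference of PC1 changed with HS in 108 windows (45%), towards Nip in 44 and towards 93-11 in 64. Across the 240 windows the difference under HS correlated with that under normal conditions at r = 0.928 and rho = 0.898, which is a description over windows that share chromosomes. The window from 60% to 65% of chromosome 9, among those with the lowest adjusted p and named after its values were seen, had 0.268 and 0.291 SD in normal Nip and 0.236 and 0.278 SD in normal 93-11. After HS it had 0.00731 and -0.0146 SD in Nip and 0.372 and 0.337 SD in 93-11. It thus was alike in the normal libraries and apart after HS, with an interaction of -0.38 ± 0.027 SD (SE, limma, adjusted p = 1.36e-04). The chromosome is the one with the largest A surplus in 93-11.

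With all chromosomes cut into 10 segments of equal relative length and summed, the A share was lowest in the fifth segment, with 7.31% and 7.30% in Nip HS and 8.26% and 8.27% in 93-11 HS, and highest in the last segment, with 93.3% in both Nip libraries and 91.1% and 91.7% in 93-11. The cultivars did not overlap in 5 of 10 segments, 3 of them higher in Nip, where random labels of 2 against 2 libraries give a share of 0.333. Under normal conditions they did not overlap in 10 of 10 segments, 8 of them higher in Nip. In the sixth segment, next to the minimum, the HS share was 20.7% and 21.5% in Nip against 16.6% and 16.3% in 93-11. TAD coverage under HS was higher in 93-11 without overlap in 8 segments. It was higher in Nip in 1, the fifth, with 91.2% and 90.6% against 89.6% and 89.4%. The geometric mean TAD size was larger in 93-11 in all 10 segments under HS and in all 10 under normal conditions.

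**Figure D4:**
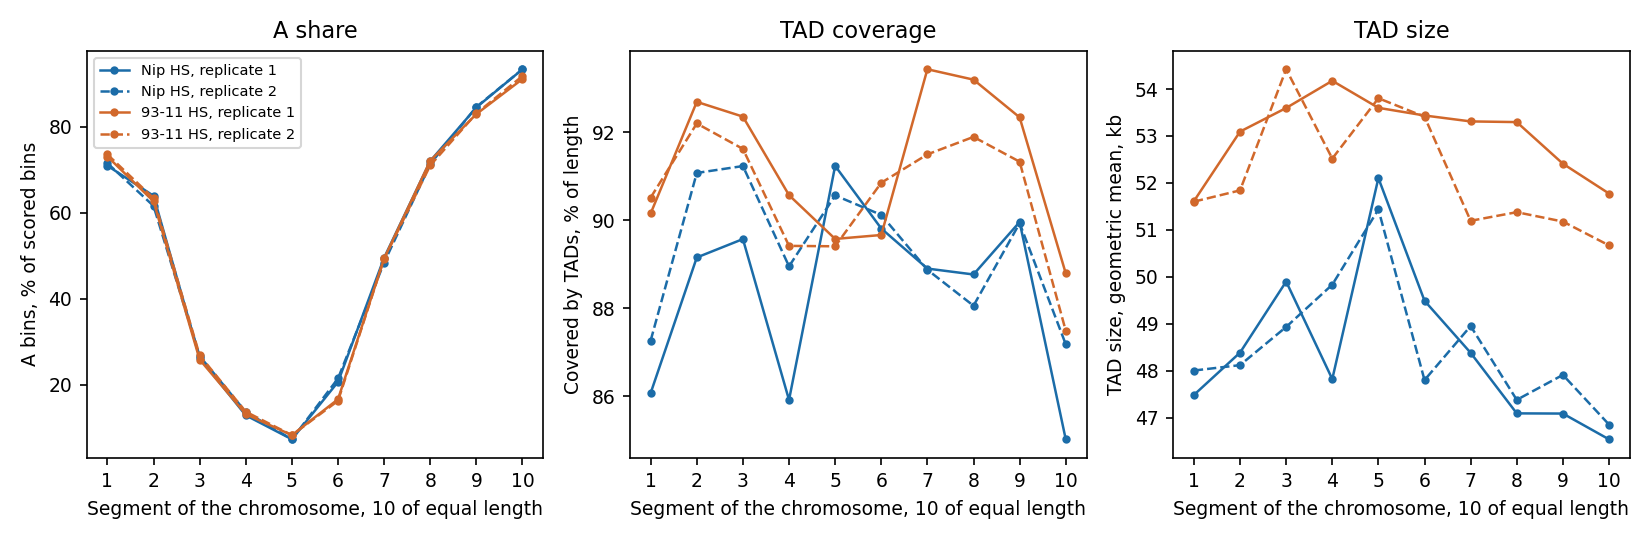
Share of scored bins called A (percent), TAD coverage (percent) and geometric mean TAD size (kb) in 10 segments of equal relative length, summed over the 12 chromosomes, 1 line per HS library. The A share falls to between 7.30% and 8.27% in the fifth segment in all 4 libraries, and TAD size is larger in 93-11 in all 10 segments.

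TADs were then compared in number, size, nesting and coverage. TADs numbered 30.2 and 31.9 per Mb in Nip HS and 30.0 and 30.2 per Mb in 93-11 HS, a difference of 0.956 per Mb, of which 0.101 was left without Nip HS 2 and which was 1.81 without Nip HS 1. Nip HS 1 and 93-11 HS 2 were nearly equal, so the difference rested on 1 library. Among TADs of at least 50 kb the order turned, with 13.2 and 14.0 per Mb in Nip against 14.6 and 14.7 per Mb in 93-11. Outermost TADs, which lie in no other TAD, numbered 11.0 per Mb in both Nip libraries and 9.57 and 10.1 per Mb in 93-11. Nip thus had fewer TADs of at least 50 kb and more outermost TADs, without overlap. Counted over all TADs, the normal libraries had 23.5 and 23.3 per Mb in Nip and 22.0 and 21.4 per Mb in 93-11. That difference, 1.70 per Mb without overlap, was larger than the one under HS.

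Nip had the smaller TADs. The mean size was 61.2 and 60.3 kb in Nip HS and 68.1 and 66.1 kb in 93-11 HS, and the median was 40 kb in both Nip libraries and 45 kb in both 93-11 libraries, 1 step of the positions apart. TADs of 200 kb or more made up 2.97% and 2.52% in Nip and 4.00% and 3.45% in 93-11. Drawn in pairs, a Nip TAD was the larger, ties counted equally, in 45.8% to 46.8% of pairs under HS and in 46.1% to 47.1% under normal conditions, against 49.4% and 50.5% between HS replicates. The size difference was therefore about as large without HS.

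Nesting and coverage were the last TAD measures. The share of TADs inside another TAD was 63.6% and 65.7% in Nip HS and 68.1% and 66.5% in 93-11 HS, and 71.5% and 73.1% in normal Nip and 73.7% and 71.4% in normal 93-11. TADs covered 88.4% and 89.3% of the genome in Nip HS and 91.3% and 90.6% in 93-11 HS, and 97.8% and 98.1% in normal Nip and 97.9% and 97.7% in normal 93-11. The part of the genome under 3 or more layers of TADs was 22.1% and 25.1% in Nip HS and 29.6% and 27.9% in 93-11 HS. Of the outermost TADs, 51.5% and 54.1% held another TAD in Nip HS against 57.5% and 56.3% in 93-11 HS, and the normal libraries, with 51.9% and 53.3% against 56.7% and 54.7%, were apart by a similar amount. The HS groups did not overlap in any of these 4 measures, nor in TADs per Mb or mean size, and each exact two-sided permutation test gave p = 0.333, the smallest possible. The difference in the share of nested TADs was -2.70 percentage points, and -1.65 without Nip HS 1. The change of the differences with HS was tested by chromosome only, where it did not pass for either nesting or coverage.

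At the level of single chromosomes the TAD measures did not set the cultivars apart. By limma 0 of 12 chromosomes (0%) passed for TADs per Mb, mean log2 TAD size, share of nested TADs and coverage, with lowest adjusted p of 0.196, 0.321, 0.118 and 0.629, and 2, 0, 3 and 0 chromosomes at an unadjusted p under 0.05. The change of the difference with HS passed on 0 of 12 (0%) for each measure too, with 1, 0, 4 and 1 at an unadjusted p under 0.05. Without Nip HS 2 it passed on 2 chromosomes for TADs per Mb, 1 for size and 3 for coverage, and without Nip HS 1 or 93-11 HS 1 on 1 for coverage. Mean coverage under HS was higher in 93-11 on 11 of 12 chromosomes, 4 of them without overlap. Random labels of 2 against 2 libraries give no overlap in a share of 0.333, and the 4 of 12 were not above it. TADs per Mb were higher in Nip on 8 chromosomes under HS and on 12 under normal conditions.

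HS replicates lay far apart on some chromosomes, which were chosen after their values were seen. Chromosome 11 had 18.0 and 32.4 TADs per Mb in the Nip HS libraries and chromosome 12 had 20.96 and 29.93. In 93-11 HS, chromosome 10 had 14.9 and 26.3 TADs per Mb, chromosome 8 had 21.2 and 28.6 and chromosome 9 had 30.2 and 22.8. The largest gap between HS replicates was 14.4 per Mb in Nip and 11.4 in 93-11, against 2.55 and 3.84 between normal replicates, and the median gap over chromosomes was 3.76 and 3.56 against 0.749 and 1.48. On chromosome 12 the cultivars did not overlap, with 37.54 and 35.96 TADs per Mb in 93-11, and the difference of -11.3 ± 3.64 per Mb (SE) had an adjusted p of 0.196.

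**Figure D5:**
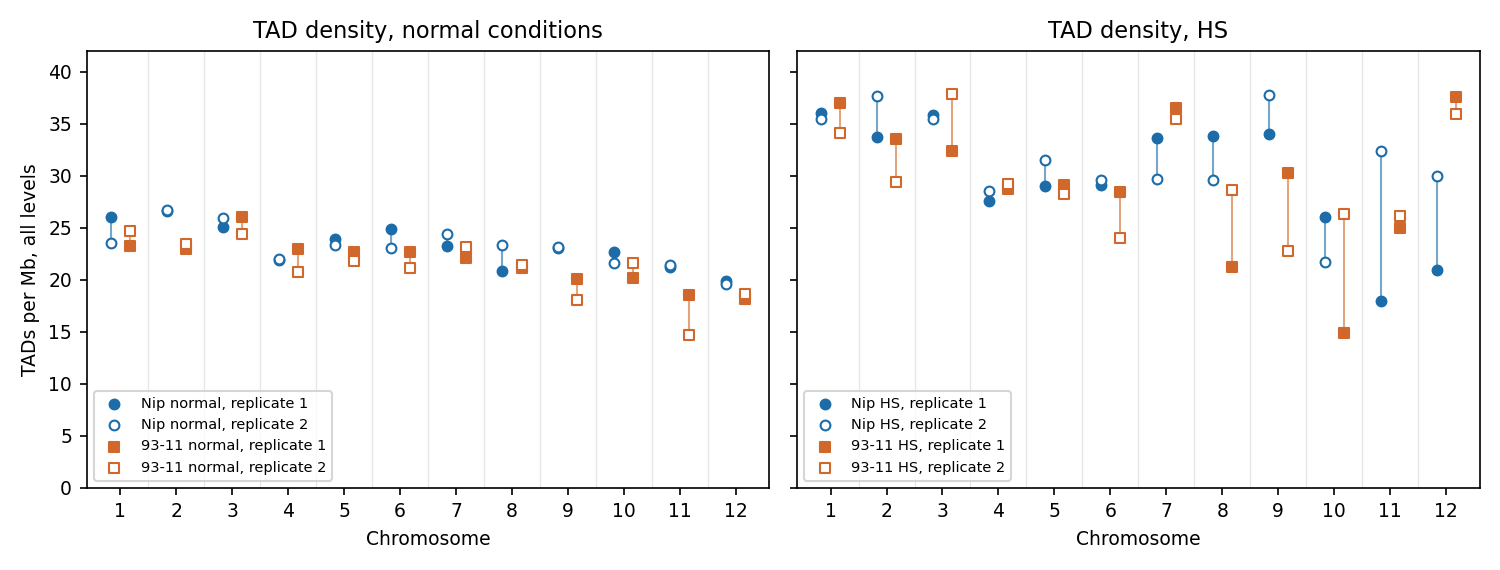
TADs per Mb on each of the 12 chromosomes, 1 point per library, for Nip and 93-11 under normal conditions and HS. Replicates lie close together under normal conditions, and under HS they are up to 14.4 per Mb apart in Nip, on chromosome 11, and up to 11.4 per Mb apart in 93-11, on chromosome 10.

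TAD boundaries were also counted in the 240 windows. No window passed between the cultivars under HS (0 of 240, 0%), with 39 at an unadjusted p under 0.05, and the difference changed with HS in 0 of 240 (0%) by limma. The latter became 19 windows without Nip HS 2. With a replicate block of crossed numbers, added after the data had been examined, 10 windows passed between the cultivars. Across windows, boundary density correlated between HS replicates at r = 0.386 in Nip and 0.498 in 93-11 and between cultivars at 0.171 to 0.564, the highest being Nip HS 2 with 93-11 HS 1, above both pairs of replicates. Under normal conditions these correlations were 0.593 and 0.613 between replicates and 0.478 to 0.539 between cultivars.

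TADs were next placed in a compartment by the bin of their midpoint. In A bins the geometric mean size was 45.9 kb in both Nip HS libraries and 50.9 and 50.5 kb in 93-11 HS, and in B bins it was 50.17 and 50.003 kb against 54.0 and 52.7 kb. TADs were larger in 93-11 in both compartments, and larger in B than in A in each of the 4 HS libraries. Coverage in A bins was 88.6% and 89.3% in Nip against 92.3% and 91.6%, and in B bins 89.9% and 90.8% against 92.6% and 91.7%. The share of nested TADs was 60.8% and 62.8% against 66.7% and 65.4% in A bins. In B bins it was 66.5% and 68.6% against 69.7% and 67.5%, which overlapped.

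Boundaries were sparsest in gene-poor bins in all 4 HS libraries. In bins with 0 to 2 genes there were 22.5 and 24.3 boundaries per Mb in Nip HS and 20.3 and 20.9 in 93-11 HS. In bins with 6 to 9 genes there were 28.3 in both Nip libraries and 25.7 and 26.8 in 93-11. In bins with 10 or more genes there were 28.7 and 28.8 in Nip and 27.0 and 26.1 in 93-11, and 93-11 HS 2 was lower there than in bins with 6 to 9 genes. Nip had the higher density in all 4 gene classes without overlap, under HS and under normal conditions alike. TAD coverage under HS overlapped in bins with 0 to 2 genes, at 87.7% and 89.1% in Nip and 88.7% and 88.1% in 93-11. In bins with 6 to 9 genes it was 87.6% and 88.7% against 91.5% and 90.4%.

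Stretches outside any TAD numbered 1741 and 1590 in Nip HS and 1264 and 1392 in 93-11 HS, and added up to 43.1 and 39.8 Mb against 33.8 and 36.4 Mb. In the normal libraries there were 406 and 361 in Nip and 373 and 406 in 93-11. The longest stretch was 570 and 460 kb in the Nip HS libraries and 585 and 725 kb in the 93-11 HS libraries. Nip thus had more uncovered stretches after HS, whereas the longest stretch of a library was longer in 93-11. That order was also there under normal conditions, with 180 and 200 kb in Nip against 400 and 405 kb in 93-11. Of bins wholly outside any TAD, 55.3% and 51.6% had no score in Nip HS against 75.4% and 64.4% in 93-11 HS.

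The largest outermost TAD of each HS library is given in the coordinates of its cultivar. In Nip HS 1 it was chr12:14965001-15580000, 615 kb with 11 TADs inside, and in Nip HS 2 chr10:7735001-8340000, 605 kb with 8 inside. In 93-11 HS 1 it was chr11:30825001-31470000 with 10 inside, and in 93-11 HS 2 chr10:7410001-8055000 with 12 inside, 645 kb each. The 4 TADs lay mostly in B bins, with 13 of 13 bins in B on chromosome 12, 11 of 13 and 11 of 14 on chromosome 10 in Nip and 93-11, and 8 of 14 on chromosome 11.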

How the data were processed

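Hi-C libraries of 8 seedling samples, 2 in each of 4 groups, were grouped by the cultivar and condition in their labels, and chromosomes, bins and TAD lists came from the files of each library. The deposited score per 50-kb bin is a PC1 that the authors rounded to 3 decimals, with squares that sum to about 1 per chromosome. The methods describe a coarser PC1 made with HOMER, and which tool made these scores is not settled. The deposited gene counts per bin are whole numbers made by the authors from an annotation that is not given in the sources used here, nor is the genome build. The deposited TAD lists of the authors give start, end and a nesting level (other) for each domain, and their caller is not settled either, since the methods name HiCExplorer and the lists nest. Reads were aligned with Bowtie2 inside HiC-Pro according to the methods, and the submitters' processing notes name cutadapt 1.0, BWA and HiC-Pro 2.8.1.

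A bin was A with a score above 0 and B otherwise, and a run ended at a bin with no score. Values per chromosome, and per window with at least 5 scored bins (20 windows per chromosome), were compared with limma 3.58.1 in R 4.3.3 on the 4 HS libraries, with Benjamini-Hochberg adjustment and a threshold of 0.05. Run lengths and gene ratios were on the log2 scale. The interaction used all 8 libraries. Genome-wide values were compared with exact permutation tests in Python 3.11.15 (numpy 2.4.6, pandas 2.3.3, scipy 1.17.1, matplotlib 3.10.9). Functions were tested on simulated data. Boundaries were matched within 5 kb. A lone replicate, when the other was left out, was assumed to vary like the other group.

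Alternatives were other definitions of each measure, a replicate block, all 8 libraries in the fit, 10 windows per chromosome and leaving out each library. Named with values were, per measure, the 2 chromosomes with the largest and the 2 with the smallest difference where any passed, the highest and lowest chromosome of each cultivar, the 3 windows with the lowest adjusted p in each direction, the longest shared runs and the largest outermost TADs. The members, measures and lists were chosen with earlier results of these data known.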

Additional observations from a re-analysis of the deposited data

Results flagged for a closer look

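The cultivar difference changed between normal conditions and HS, by the limma interaction over all 8 libraries, for the A share of 5 chromosomes, the mean A run length of 1 chromosome, the PC1 range of 8 chromosomes and the mean PC1 of 108 windows. For the A share the change on chromosomes 4, 8 and 11 was -2.26 (adjusted p = 0.0104), -2.09 (adjusted p = 0.0156) and -1.86 percentage points (adjusted p = 0.0287), beside the larger changes on chromosomes 9 and 10 already given. For the PC1 range all 8 changes were towards a wider range in Nip, and between the 5th and the 95th percentile 7 chromosomes passed, 6 towards Nip and 1 towards 93-11. Ties from rounding between normal replicates lower the SE of the PC1 range interaction, so these calls may be overstated.

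The windows with the lowest adjusted p of the interaction were on chromosomes 12, 10 and 5 towards Nip and on chromosomes 2, 9 and 8 towards 93-11. From 35% to 40% of chromosome 12 the mean score went from -0.546 and -0.538 SD in normal Nip to -0.332 and -0.308 SD in Nip HS, and from -0.368 and -0.379 SD to -0.470 and -0.443 SD in 93-11, an interaction of 0.30 SD (adjusted p = 1.35e-04). From 80% to 85% of chromosome 2 it went from 1.19 and 1.18 SD to 1.14 and 1.16 SD in Nip, and from 0.655 and 0.646 SD to 0.914 and 0.938 SD in 93-11, an interaction of -0.31 SD (adjusted p = 1.35e-04). In the first window the cultivars crossed, and in the second they came closer.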

How the results depend on the processing

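Of 26 genome-wide values under other definitions, 24 kept their direction. The A share difference turned to 0.0367 percentage points without bins near 0, and TADs per Mb to -1.08 with TADs of at least 50 kb. Leaving out 1 library, the A share difference ran from -0.150 to 0.0400 and no other genome-wide value turned. The difference in TADs per Mb ran from 0.101 to 1.81. Of 42 counts of calls under other settings, 35 stayed within 1.5 times. Runs across bins with no score left 5 chromosomes for A run length. All 8 libraries in the fit gave 8 for B run length, 2 for TADs per Mb, 2 for nested TADs and 9 boundary windows, and 10 windows per chromosome gave 95 of 120 for PC1. Without 1 library, chromosomes called ran from 6 to 10 for A share, 6 to 12 for A run length, 1 to 7 for B run length and 2 to 7 for PC1 range. Interaction calls ran from 2 to 5 for A share, 1 to 4 for A run length, 0 to 1 for B run length, 0 to 2 for the gene ratio, 0 to 2 for TADs per Mb, 0 to 1 for TAD size, 0 to 3 for coverage and 0 to 19 for boundary windows. The cause of these changes was not tested, other than that fewer libraries leave fewer degrees of freedom.

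With the replicate block, 12 chromosomes passed for A share, 11 for A run length, 6 for B run length, 12 for the gene ratio, 9 for PC1 range and 180 windows for PC1, and no count moved by over 1.5 times. Deviations of same-numbered HS replicates correlated at 0.0141 for PC1 and -0.255 for boundaries over 240 windows. The labels give no pairing, and same-numbered replicates did not deviate together. For boundaries the negative value goes with crossed numbers, and a replicate block with these, added after the data had been examined, gave 10 boundary windows.

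Of 168 values of named chromosomes and windows, 144 kept their call, 14 no longer passed, 3 newly passed and 7 turned. Without 1 library, A run length on chromosome 10 ran from -0.018 to 0.21 on the log2 scale, B run length from -0.043 to 0.17 on chromosome 10 and from -0.056 to 0.14 on chromosome 8, and PC1 range on chromosome 4 from -0.0354 to 0.0179 SD. Across bins with no score, A run length on chromosome 10 was -0.026 and B run length on chromosome 8 was -0.033. None of these had passed.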

Other observations

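The difference between the cultivars in genes per B bin, Nip minus 93-11, correlated over the 12 chromosomes with their length in 93-11 over that in Nip at r = 0.519 and rho = 0.594, and the difference in PC1 range at r = 0.601 and rho = 0.490. The other 3 such correlations were weaker, with r = -0.362 and rho = -0.133 for the A to B gene ratio, r = 0.195 and rho = 0.350 for genes per A bin and r = 0.0281 and rho = -0.189 for the A share. Chromosomes share their libraries, so these values are descriptions.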
